A study of Mus musculus with 10 samples.

Results

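The 5-carboxylcytosine (5caC) of Tdg cells was set against that of wild-type (wt) cells, with both kinds of mouse embryonic stem cell grown in serum-2i. Serum-2i was the medium with fetal bovine serum and the cytokine LIF plus a pair of kinase inhibitors. CHIR99021, at 3 µM, blocks GSK3, and PD0325901, at 1 µM, blocks MEK. Both groups were cultured on gelatin without feeder cells, and the labels give neither strain nor clone. The labels of the Tdg group name the gene without saying how it was altered. The members were all CG positions that the deposited coverage table listed for either group, which came to 745650 of the 922427 positions of the whole table. They came from 4 of the study's 10 samples, as 2 technical replicates of each group, and each listed value was read as the mean of those 2 replicates. The comparison asks what the loss or change of the enzyme that removes 5caC does to its level and place under this medium.

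Tdg encodes thymine DNA glycosylase, which cuts 5caC and 5-formylcytosine out of DNA and hands the gap to base excision repair. Both bases arise when TET enzymes oxidise 5-methylcytosine stepwise by way of 5-hydroxymethylcytosine (5hmC). Excision by this enzyme followed by repair restores an unmodified cytosine, which makes 5caC a short-lived intermediate of active DNA demethylation. A 5caC that is seen in cells with the enzyme had not been removed when the DNA was taken, and one seen in cells without it marks a place that the oxidation reached. Embryonic stem cells express TET enzymes strongly, and inhibition of GSK3 and MEK holds them near the naive state of the early embryo.

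The promoters that held the most listed sites show what a listed site is. The sequences are the bases before the annotated start, read 5′ to 3′ on the gene's strand from the RefSeq promoters of GRCm38.p6. The CGs listed in Tdg cells are in capitals and all other bases, unlisted CGs included, are in lower case. Gpat2, an acyltransferase of the mitochondrial membrane that is mainly found in testis, and Rpl39l, the testis copy of a ribosomal protein gene, held the most sites in Tdg cells. Sycp1, which encodes the transverse filament of the synaptonemal complex of meiosis, Dab2ip, which encodes a Ras GTPase-activating protein, and Gstp2, which encodes a glutathione transferase, are shown because their promoters were among the few with more than 1 site in wt cells.
Gpat2, chr2:127424949-127425198, plus strand: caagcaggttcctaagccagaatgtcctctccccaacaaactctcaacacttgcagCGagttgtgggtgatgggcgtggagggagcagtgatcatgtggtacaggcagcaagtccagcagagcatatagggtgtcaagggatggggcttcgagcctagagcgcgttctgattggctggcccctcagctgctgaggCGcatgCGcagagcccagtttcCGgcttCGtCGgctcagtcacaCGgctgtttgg
Rpl39l, chr16:10169978-10170227, plus strand: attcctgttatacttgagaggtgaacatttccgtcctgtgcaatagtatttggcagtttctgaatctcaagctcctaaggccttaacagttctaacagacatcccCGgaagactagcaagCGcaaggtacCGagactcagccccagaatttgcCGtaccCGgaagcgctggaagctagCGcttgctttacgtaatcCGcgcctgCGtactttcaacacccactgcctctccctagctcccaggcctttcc
Sycp1, chr3:102936101-102936350, minus strand: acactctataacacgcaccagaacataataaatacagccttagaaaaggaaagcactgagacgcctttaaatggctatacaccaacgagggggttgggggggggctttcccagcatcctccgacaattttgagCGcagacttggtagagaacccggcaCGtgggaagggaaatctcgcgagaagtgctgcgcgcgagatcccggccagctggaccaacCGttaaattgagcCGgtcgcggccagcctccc
Dab2ip, chr2:35558208-35558457, plus strand: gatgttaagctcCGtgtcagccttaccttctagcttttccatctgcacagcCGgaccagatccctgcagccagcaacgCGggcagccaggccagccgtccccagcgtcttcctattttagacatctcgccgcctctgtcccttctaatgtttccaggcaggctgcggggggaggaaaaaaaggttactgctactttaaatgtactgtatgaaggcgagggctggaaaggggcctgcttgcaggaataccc
Gstp2, chr19:4042222-4042471, minus strand: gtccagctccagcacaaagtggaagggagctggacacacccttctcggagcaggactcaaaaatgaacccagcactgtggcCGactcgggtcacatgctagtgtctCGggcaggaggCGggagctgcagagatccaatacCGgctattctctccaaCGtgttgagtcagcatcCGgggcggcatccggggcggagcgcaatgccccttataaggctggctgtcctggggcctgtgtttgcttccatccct

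Counted over the 300 bases that run from 250 before to 50 after the start, the Gpat2 promoter held 15 CGs, of which 11 were listed in Tdg cells and 1 in wt cells. The wt site lay 194 bases before the start and had a coverage, the mean number of reads at a site, of 19 in either group. The other 10 sites of Tdg cells were all within 55 bases of the start, with coverages from 12.5 to 45.5. In the Rpl39l promoter 11 of 17 CGs were listed in Tdg cells, with coverages from 6 to 72.5, and none in wt cells. The 2 most covered CGs of Rpl39l lay 32 and 46 bases after the start.

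In the Sycp1 promoter 6 of 21 CGs were listed in Tdg cells, with coverages from 11 to 29. The 2 wt sites of Sycp1 were among these 6, with a coverage of 6.5 in wt against 17.5 in Tdg cells at 16 bases after the start, and of 5 against 18.5 at 31 bases before it. Dab2ip had the same 3 listed CGs in both groups, with coverages of 9, 8.5 and 9 in wt cells and 11.5, 20 and 6.5 in Tdg cells, at 238, 199 and 172 bases before the start. The Gstp2 promoter had 6 sites in Tdg cells with coverages from 8.5 to 57, and the 2 of them that wt cells shared had 5 and 9 there. Gstp2 has a close paralog, so its reads are uncertain where the 2 copies are alike.

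Tdg cells had 689303 listed sites in serum-2i and wt cells 110753, a ratio of 6.22. The median coverage of a site was 13.5 in Tdg cells (quartiles 9.5 and 21) and 7.5 in wt cells (quartiles 5.5 and 9.5). The highest coverage was 452 in Tdg cells and 100.5 in wt cells. The summed coverage of the listed sites was 12348368 in Tdg cells and 890158.5 in wt cells. It depends on both the number of reads and the amount of 5caC, which cannot be told apart here.

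The table lists a site only from a least coverage, which was 4 in wt and 6 in Tdg cells, so the true ratio of sites cannot be read from it. The gap widened with coverage: from a common minimum of 6 upward there were 82193 wt sites and a ratio of 8.39, from 10 upward a ratio of 20.6, and from 20 upward 191724 sites in Tdg cells against 1254 in wt cells, a ratio of 153. Only 128 wt sites reached a coverage of 30, against 88866 in Tdg cells. A site missing from a group is of unknown value there, and without a value per replicate the size of a difference could not be read against technical spread.

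**Figure D1:**
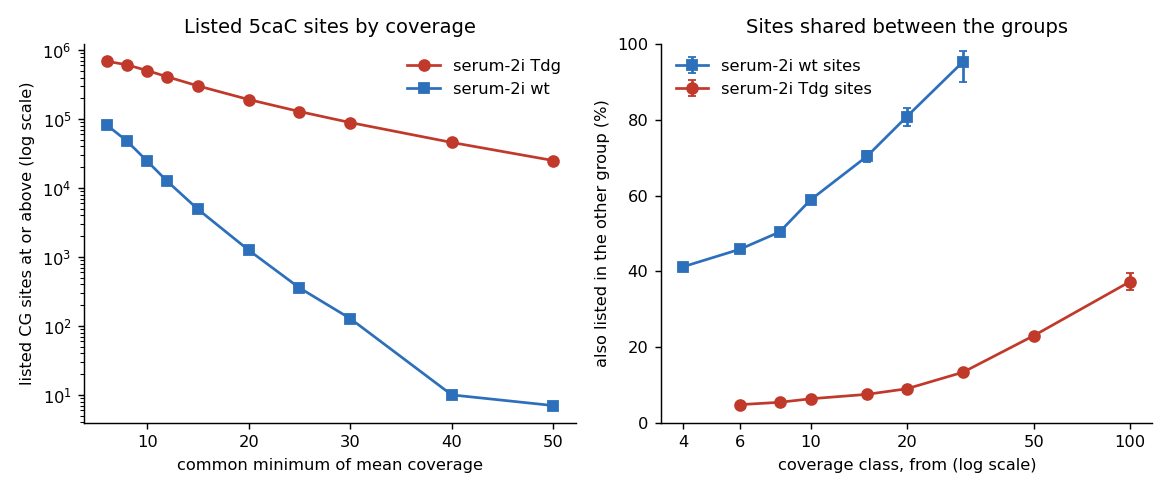
Left, number of listed CG sites (log axis) at or above each common minimum of mean coverage in serum-2i Tdg cells (red) and wt cells (blue). Right, percent of each group's sites that the other group also lists, by coverage class (log axis, lower bound of the class; bars are exact 95% binomial intervals); it rises from 41.2% to 95.3% for wt sites and from 4.79% to 37.3% for Tdg sites.

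The sites seen in wt cells were in part sites that Tdg cells also had. Of the wt sites, 54406 were listed in Tdg cells, which is 49.1% of the wt sites (exact binomial 95% interval 48.8 to 49.4%) and 7.89% of the Tdg sites. The intervals cover counting error only, since sequencing reads after PCR are not independent molecules. The share rose with coverage from both sides. Among wt sites with a coverage of 4 to 5.5 it was 41.2%, at 10 to 14.5 it was 58.9%, and of the 128 wt sites at 30 or more, 122 (95.3%, 90.1 to 98.3%) were listed in Tdg cells. Among Tdg sites it went from 4.79% at coverages of 6 to 7.5 up to 37.3% (35.1 to 39.5%) at 100 or more.

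At the shared sites the coverage was a median of 2.30 times as high in Tdg cells (quartiles 1.41 and 4.07). It was higher in Tdg cells at 47944 shared sites (88.1%), higher in wt cells at 5530 and equal at 932. The coverages of a shared site in both groups were weakly related. Across the 54406 shared sites Pearson's r was 0.19 and Spearman's rho 0.12. These sites are not independent replicates and come from the same libraries. Both values cover only sites above both listing minimums, where wt coverage had a narrow range (quartiles 6 and 10). The median coverage in Tdg cells still rose, from 16 at wt coverages of 4 to 5.5 to 42 at 30 or more.

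The most covered shared sites were spread over few places. The highest in wt cells lay at chr11:3157838-3157839 in Sfi1, a gene of a centrin-binding protein of the centrosome, with 100.5 in wt and 87 in Tdg cells. Another was in Map4k3, a kinase gene, at chr17:80677122-80677123, with 61 in wt and 117 in Tdg cells. One more, at chr9:35369071-35369072, lay 52457 bases from its nearest protein-coding gene, Cdon, with 61 in wt and 89 in Tdg cells. All 5 shared sites with the highest wt coverage were also listed in serum Tdg cells, where they had 19.5 to 61. How uniquely reads map in Sfi1 was not tested.

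Of the shared sites with the highest coverage in Tdg cells, the first was between genes, at chr16:29695582-29695583, 32455 bases from Opa1. It had 256.5 in Tdg and 27 in wt cells. Another, at chr8:88964372-88964373, 62870 bases from the gene of the transcription factor Sall1, had 214.5 in Tdg and 13 in wt cells. The highest value of all, 452 at chr11:3193428-3193429 in Sfi1, was at a site that wt cells did not list; it was named after its value was seen.

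The 56347 wt sites that Tdg cells did not list also had few matches in the other medium. They were listed in the Tdg cells grown in serum in 5.21% of cases (5.03 to 5.40%), against 30.7% (30.3 to 31.1%) of the shared sites and 28.5% of the sites of Tdg cells alone. The gap was present within each class of wt coverage, where 4.64 to 9.01% of the wt-only sites and 29.0 to 44.7% of the shared sites were listed in serum Tdg cells. The wt-only sites also lay farther from other Tdg sites: the nearest was a median of 485 bases away, against 91 bases for shared sites and 82 bases for sites of Tdg cells alone. Even so, 65.5% of the wt-only sites had a Tdg site within 1000 bases. The sets were split by listing in serum-2i Tdg cells, whose sites cluster and in part recur in serum. Fewer matches and longer distances for wt-only sites are thus favoured by the split itself, also within a class of wt coverage.

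Sites were clustered in Tdg cells and mostly single in wt cells. In Tdg cells 84.4% of sites had another site within 1000 bases and 53.8% within 100 bases, and in wt cells 35.6% and 11.1%. Spacing depends on the number of sites, so the 110753 Tdg sites of highest coverage, as many as wt had, were also taken: 55.4% had a neighbour within 1000 bases and 34.5% within 100 bases. These Tdg sites start at a coverage of 26.5 and the wt sites at 4, so the sets are equal in number but not in coverage. How picking sites by coverage acts on their spacing was not tested. Runs, meaning 5 or more sites in a row no farther than 100 bases apart, numbered 11749 in Tdg cells, 355 at the equal number of sites, and 10 in wt cells, of which 7 overlapped a Tdg run.

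The longest run of Tdg cells had 30 sites in 848 bases within Wnt3a, a gene of a secreted WNT ligand, at chr11:59249256-59250103, where the median coverage was 23.5. Wild-type cells had 3 sites in the same stretch. The next held 27 sites in Akap12, a scaffold protein of protein kinase A, at chr10:4354511-4355372, and 22 in Sall4, a pluripotency factor, at chr2:168755428-168755992, with 3 and 2 sites in wt cells. The longest wt run, 7 sites in 176 bases of Nhlrc2 at chr19:56594879-56595054, held 5 Tdg sites with a median coverage of 23 against 7.5 in wt cells.

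By chromosome, most shares of sites were alike, and chromosomes 8, 11 and X stood apart. Chromosome 8 held 6.95% of wt sites and 5.54% of Tdg sites, a ratio of shares of 0.80 (0.78 to 0.82). On chromosome 11 the ratio was 0.86 (0.84 to 0.88). On X it was 2.10 (1.91 to 2.32), from 5728 Tdg sites and 438 wt sites. The other chromosomes lay between 0.97 and 1.13.

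The shift on chromosome 8 was not local: its stretches of 20 Mb had ratios from 0.70 to 0.90, all below 1. On X every stretch was above 1, from 1.77 to 3.08. On chromosome 11 the stretches ran from 0.61 to 1.09. In serum the same ratio was 0.87 on chromosome 8, 0.78 on chromosome 11 and 1.61 on X. Chromosome copy number was not measured, and its part in these ratios was not tested.

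**Figure D2:**
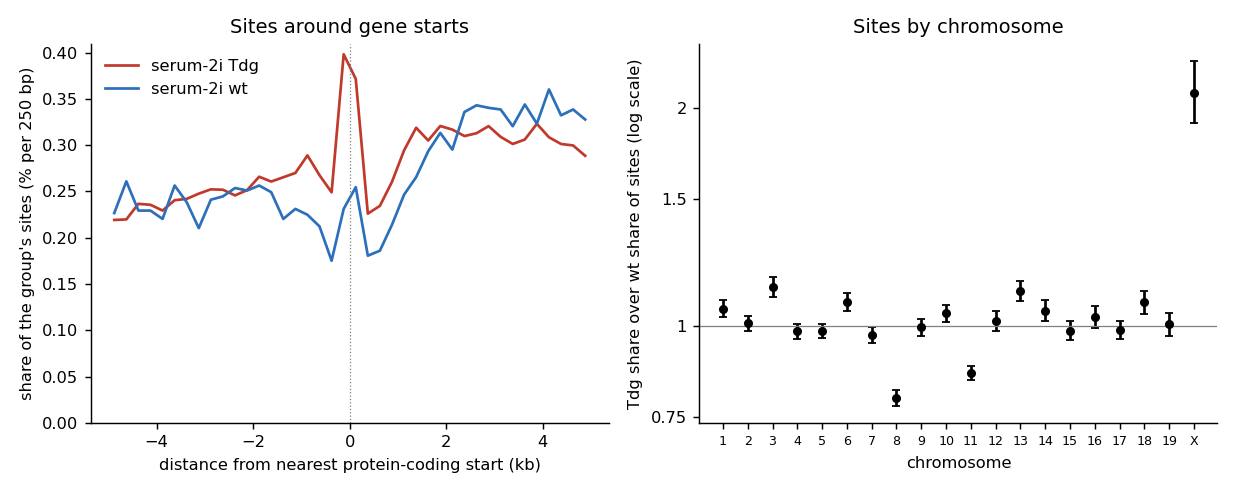
Left, percent of each group's sites per 250 bp by distance (kb) from the nearest protein-coding start, for serum-2i Tdg cells (red) and wt cells (blue); the bin just before the start holds 0.398% of Tdg and 0.231% of wt sites. Right, share of Tdg sites over share of wt sites for each chromosome (log axis, points with exact conditional 95% intervals); chromosomes 8 and 11 lie below 1 and X at 2.10.

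Genes held a smaller share of Tdg sites than of wt sites. Protein-coding spans held 56.5% (56.3 to 56.6%) of Tdg sites and 61.2% (60.9 to 61.5%) of wt sites. Places over 10 kb from any such span held 30.04% (29.9 to 30.1%) of Tdg and 26.3% (26.0 to 26.6%) of wt sites, and spans of long non-coding RNAs outside them 8.02% and 7.11%. Around gene starts the order turned: within 0.25 kb of a protein-coding start lay 0.768% (0.748 to 0.789%) of Tdg sites and 0.485% (0.445 to 0.528%) of wt sites. The ratio of Tdg to wt sites was 9.86 there, 7.96 from 0.25 to 1 kb, 5.80 from 5 to 20 kb and 6.89 beyond 100 kb.

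Promoters held few sites in either group. Of 17250 protein-coding genes with a promoter sequence, 2022 had a site in Tdg cells within the 300 bases around a start, which is 11.7%, and 315 in wt cells, which is 1.83%. Of the 298695 CGs in these promoters, 1.21% were listed in Tdg cells and 0.115% in wt cells. The listed share differed with the number of CGs. In promoters with 1 to 4 CGs, 5.77% (5.35 to 6.22%) of them were listed in Tdg and 0.871% (0.709 to 1.06%) in wt cells. In promoters with 5 to 9 CGs, 8.17% (7.80 to 8.55%) of them were listed in Tdg and 0.865% (0.744 to 1.00%) in wt cells. With 10 to 19 CGs the shares were 1.73% and 0.105%, and with 20 or more, the densest CpG islands, they were 0.116% (0.102 to 0.131%) and 0.0035% (0.0015 to 0.0069%).

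Germline genes had many promoter sites. Of 19 germline genes that DNA methylation keeps silent in somatic cells and whose promoter sequence was at hand, 13 (68.4%) had a promoter site in Tdg cells and 5 (26.3%) in wt cells. These 19 all have a promoter window of at least 10 CGs, and among all genes with such a window the shares were 6.85% and 0.636%. Of the 385 promoter CGs of the list, 12.2% were listed in Tdg and 1.56% in wt cells. Sycp3, a protein of the axis of meiotic chromosomes, had 7 of 15 CGs listed in Tdg cells with a mean coverage of 32.1, and 1 in wt cells with 5. Dpep3, a dipeptidase of the testis, had 5 of 12 in Tdg and 1 in wt cells. Hormad1, another protein of the meiotic chromosome axis, and Slc25a31, the ADP/ATP carrier of sperm, had 5 each in Tdg cells and none in wt cells. The piRNA pathway genes Asz1 and Mov10l1 had 4 each and none in wt cells. Ddx4, Mael, Rpl10l, Sycp2, Tdrd1 and Tdrkh had no promoter site in either group.

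The promoters with the most sites included others outside that list. Brdt, a bromodomain protein of the testis, had 9 of 23 CGs listed in Tdg and none in wt cells. Syce1l had 4 of 13 in Tdg and 3 in wt cells, and Syce3, a protein of the synaptonemal complex, 6 of 15 and 2. Elf5, a transcription factor of the trophoblast, had 7 of 10 CGs listed in Tdg cells, and its 1 wt site, 15 bases after the start, had 20 in wt and 24 in Tdg cells. The same ranking also named Arhgap30, with 8 of 9 CGs listed in Tdg and 1 in wt cells, and Zfp560, with 8 of 23 and none. Arhgef18 had 7 of 9 and 1, Mcf2l 7 of 10 and 1, and Slco4a1 4 of 4 and 2. The 16 genes of DNA methylation and demethylation, the 17 of histone and chromatin modifiers, the 11 of the ERK pathway and the 15 housekeeping genes had no listed promoter site in either group. Their promoters are dense in CGs, and of all promoter windows with 20 or more CGs 2.01% held a site in Tdg and 0.0918% in wt cells, so counts of 0 in lists of this size do not set them apart.

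**Figure D3:**
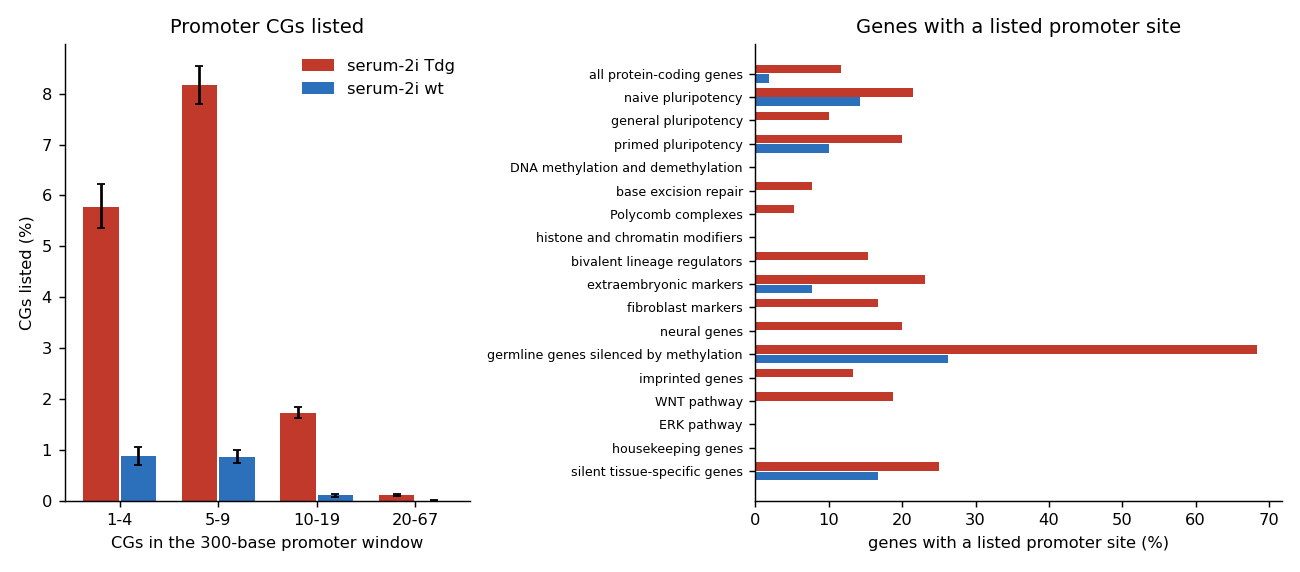
Left, percent of promoter CGs listed in serum-2i Tdg cells (red) and wt cells (blue), by the number of CGs in the 300-base window, with exact 95% binomial intervals; the share is 8.17% and 0.865% at 5 to 9 CGs. Right, percent of genes of each list with a listed promoter site, where germline genes stand at 68.4% in Tdg and 26.3% in wt cells against 11.7% and 1.83% of all genes.

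Over whole genes, 16301 of 21627 protein-coding genes (75.4%) had a site in Tdg cells and 12139 (56.1%) in wt cells. Sites in both groups were found in 11915 of them, in Tdg cells alone in 4386 and in wt cells alone in 224. Genes were compared by the log2 ratio of shares, which is the gene's share of the summed coverage of Tdg cells over its share in wt cells, which takes out the difference in summed coverage between the groups. A gene was called higher or lower where this ratio was at least 2-fold and its exact conditional 95% interval left out 0. That interval takes every read as independent and covers counting error only.

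Of 15825 genes with sites in both groups and a summed coverage of at least 40, 1832 had a higher share in Tdg cells (11.6%) and 3725 a lower share (23.5%), and another 4703 had sites in Tdg cells alone. The median log2 ratio was −0.25 (quartiles −0.95 and 0.42). With the median set to 0 by median-ratio scaling, a shift of 0.25, 2556 were higher and 2781 lower, which moves the higher share of the calls from 33.0% to 47.9%. The minimum on summed coverage moved the lower calls alone. Without it 1832 were higher (10.7%) and 4936 lower (28.9%), and at 100 or more 1832 (13.8%) and 2212 (16.7%). The split of the calls, and the shares of all genes set beside the gene lists below, thus depend on this minimum. Most calls rest on few sites: taken on the number of sites in place of coverage, 98 were higher and 544 lower, and among the 4996 genes with at least 5 sites in each group 108 were higher and 1025 lower. From a common coverage minimum of 10 upward, 424 were higher and 3830 lower. Needing 5 sites or a coverage of 10 keeps genes by their wt sites, the group the ratio divides by, which itself favours lower calls. The number of sites per gene was related between the groups, with Spearman's rho of 0.73 across the tested genes, which share their libraries and their lengths.

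The median log2 ratio of the tested genes went with gene length. It was −0.73 in protein-coding genes under 10 kb, −0.46 from 10 to 30 kb, −0.22 from 30 to 100 kb and 0.07 beyond 100 kb. Summed over all genes of a class, whether tested or not, the log2 ratio was −0.28, −0.30, −0.18 and 0.01, a smaller difference without a steady order. A short gene enters only with at least 1 site in wt cells, the group with fewer listed sites, so these medians also move with the number of sites. The part of depth was not tested. Per kb, Tdg cells had 0.574 sites in genes under 10 kb and 0.282 in those over 100 kb, and wt cells 0.104 and 0.0450.

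**Figure D4:**
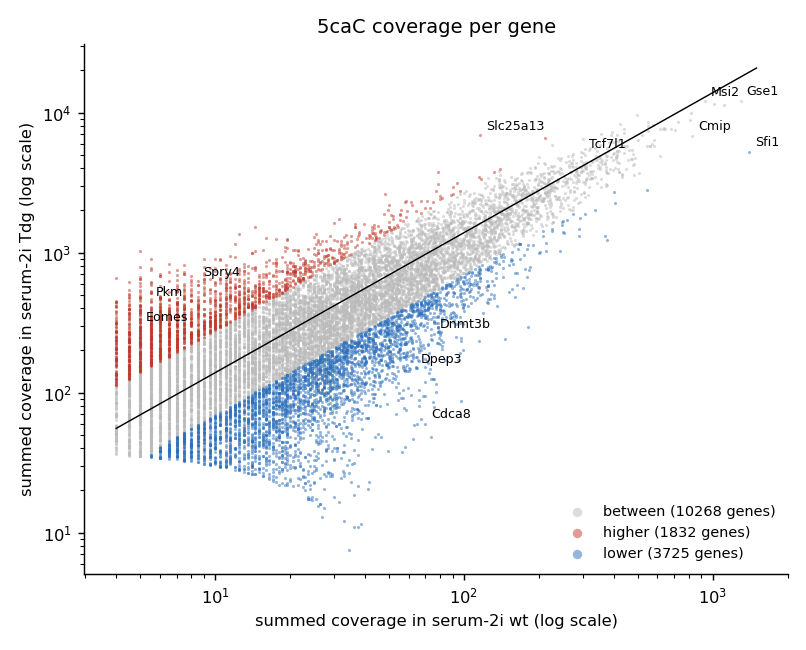
Summed coverage of each gene in serum-2i wt cells (x, log axis) and Tdg cells (y, log axis), 1 point per gene tested. The line marks equal shares of the groups' summed coverage; 1832 genes (red) had a share at least 2-fold higher in Tdg cells and 3725 (blue) at least 2-fold lower.

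Among genes with at least 5 sites in each group, Slc25a13 had the highest ratio. It encodes a mitochondrial carrier of aspartate and glutamate and spans chr6:6041218-6217304. Tdg cells had 314 sites with a summed coverage of 6886 in it and wt cells 16 sites with 116.5, a log2 ratio of 2.09 (1.90 to 2.28). One window of 100 kb within it, chr6:6100000-6199999, held 231 of these sites in Tdg cells and 6 in wt cells. Hs6st3, a heparan sulfate sulfotransferase, followed with 151 and 6 sites (1.97), and Nedd9, a focal adhesion scaffold, with 69 and 5 (1.95). The other 7 of the highest 10 were Tenm2, Tnrc6b, Cadps2, Zeb2, Lpar1, Neurl1a and Erc2, at 1.54 to 1.78.

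The lowest ratios were in genes with about as many sites in either group. Cdca8, a subunit of the chromosomal passenger complex of mitosis, had 6 sites in Tdg cells with a summed coverage of 60 and 7 in wt cells with 70, a log2 ratio of −4.02 (−4.38 to −3.65). Myh8, a myosin heavy chain of skeletal muscle, had 5 sites in Tdg and 7 in wt cells, with 59 and 63 (−3.89). Pfkl, the liver phosphofructokinase, had 6 sites in either group, with 64.5 in Tdg and 67.5 in wt cells (−3.86). In these 3 genes the summed coverage itself, before division by the totals, was no higher in Tdg than in wt cells. Others among the lowest 10 were Slc30a6, Gtf3c2, Cntrob, Mtss2, Crybb3 and Brf1, at −3.72 to −3.33.

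The 10 genes with the most wt sites all had a smaller share of coverage in Tdg cells, by less than 2-fold in all but 1. Gse1, a component of a histone deacetylase complex, had 146 wt sites and 653 Tdg sites, of which 76 were shared, and a log2 ratio of −0.56. Zfhx3, a zinc finger and homeobox transcription factor, had 136 and 643 (−0.44), and Msi2, an RNA-binding protein of stem cells, 107 and 643 (−0.10). Sfi1 was the only one of these 10 called, with a log2 ratio of −1.89 (−1.95 to −1.83). It had 89 sites and a summed coverage of 1406 in wt cells and 131 sites and 5255 in Tdg cells. Its mean coverage per site was 15.8 in wt and 40.1 in Tdg cells, against 8.01 to 8.89 and 16.7 to 19.7 in the others. Read mapping and copy number at Sfi1 were not tested. All 10 intervals lay below 0, and 5 of the genes lie on chromosome 8 and 3 on chromosome 11. These genes were picked for many sites in wt cells, the group the ratio divides by, which favours a ratio below 0. The median over all genes tested was itself −0.25.

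Genes with many sites in Tdg cells and none listed in wt cells had up to 51. Acadm, the medium-chain acyl-CoA dehydrogenase of fatty acid oxidation, had 51 sites with a summed coverage of 992. Madd had 49 with 1126, Adgrl3 48 with 693.5, Anxa2, a phospholipid-binding annexin, 46 with 863, and Spats1 45 with 716.5. The Tdg gene itself had 8 sites with a summed coverage of 146.5 in Tdg cells, between chr10:82631171 and chr10:82635124 within its span of chr10:82629814-82650799, and none in wt cells. As the alteration of the gene is not stated, these sites neither check nor contradict the label.

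Some genes of DNA methylation and its reversal were called, in either direction. Of 20 genes, 13 were tested, of which 1 was higher and 2 were lower, against 11.6% and 23.5% of all genes tested, with a median log2 ratio of −0.12 that becomes 0.13 under median-ratio scaling. Dnmt3b, a de novo DNA methyltransferase, had 13 sites in Tdg and 9 in wt cells and a log2 ratio of −2.0 (−2.26 to −1.73). Mbd3, a subunit of the NuRD complex, had 5 and 2 sites (−1.41). Smug1, a uracil glycosylase, was called higher at 1.26 (0.65 to 1.94), from 12 sites in Tdg and 1 in wt cells, and it turned to −0.15 from a coverage of 10 upward. Of the 16 genes of base excision repair, the pathway that works after Tdg, 10 were tested, 1 higher and 4 lower, with a median of −0.67. Ung, the main uracil glycosylase, had 20 sites in Tdg and 1 in wt cells (1.79, 1.06 to 2.63), while Nthl1, a glycosylase for oxidised pyrimidines, had 6 and 1 (−2.19). Polb, the polymerase that fills the gap, had 7 sites in Tdg cells and none in wt cells, and Neil2 and Neil3, which also are glycosylases, had 9 and 3 with none in wt cells.

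Among pluripotency genes some were called in either direction and several had sites in Tdg cells alone. Over all genes tested 11.6% were higher and 23.5% lower, and 4703 of 20528 genes with enough summed coverage had sites in Tdg cells alone. Of 22 naive pluripotency genes 11 were tested, with 2 higher, 1 lower and a median of 0.20, and their summed coverage gave 0.02 (−0.05 to 0.09). Prdm14, which represses methyltransferases in naive cells, had 22 sites in Tdg and 3 in wt cells (1.15, 0.67 to 1.67). Dppa2 and Dppa4, which form a complex and lie near each other on chromosome 16, parted: Dppa2 had 17 and 2 sites (1.03) and Dppa4 12 and 4 (−1.24). Klf4 had 18 sites in Tdg cells, Nanog 3, Gbx2 4 and Tcl1 4, with none in wt cells. Of 13 general pluripotency genes 3 were tested, none of them called, with a median of −0.54. Their summed coverage, which also counts the genes with sites in Tdg cells alone, had the opposite sign, at 0.52 (0.31 to 0.73). Pou5f1, the gene of Oct4, had 6 sites in Tdg cells and none in wt cells, Lin28a 11, Nodal 12 and L1td1 12.

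Of 16 primed pluripotency genes 4 were tested, 1 higher and 1 lower, against 11.6% and 23.5% of all genes tested. Eomes, a T-box factor of mesendoderm, had 17 sites with 297 in Tdg cells and 1 site with 5 in wt cells (2.10, 1.21 to 3.17). Fgf8 had 12 and 3 sites (−1.07), which became 0.59 when 5 kb flanks were added to the gene. Fgf5 had 9 sites in Tdg cells, Otx2 10 and T, the brachyury gene, 8, with none in wt cells within the spans of these 3 genes.

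**Figure D5:**
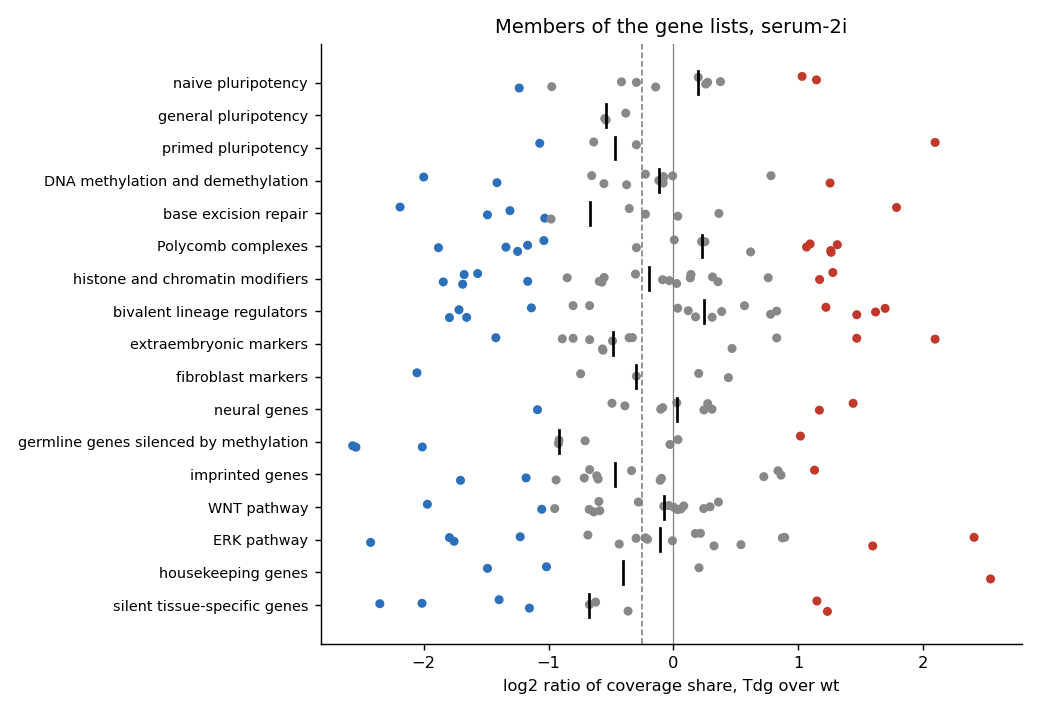
Log2 ratio of coverage share, Tdg over wt in serum-2i, for each tested member of the gene lists (points; red, called higher; blue, called lower; grey, between), with each list's median (black bar). The solid line marks 0 and the dashed line the median of −0.25 over all 15825 genes tested; the list medians lie between −0.92 for germline genes and 0.24 for bivalent lineage regulators.

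Lineage regulators and Polycomb genes had the highest list medians. The bivalent lineage regulators, whose promoters carry both active and repressive histone marks in stem cells, counted 40. Of these 18 were tested, 4 higher and 4 lower, and 9 more kept genes had sites in Tdg cells alone. Their median was 0.24 against −0.25 over all genes, and their summed coverage gave 0.59 (0.51 to 0.68). Over all genes tested 11.6% were higher and 23.5% lower, and 4703 of 20528 kept genes had sites in Tdg cells alone. Msx2, a homeobox gene, had 9 sites in Tdg and 1 in wt cells (1.70) and Lhx5, a LIM homeobox gene, 7 and 1 (1.62), while Neurog1, a proneural factor, had 2 and 1 (−1.79). Nkx2-2, a homeobox gene of the ventral neural tube, had 25 sites with 386.5 in Tdg cells and none in wt cells.

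Of 22 genes of the Polycomb complexes, which place repressive histone marks, 16 were tested. Of these 5 were higher and 5 lower, against 11.6% and 23.5% of all genes tested. Their median was 0.23, while their summed coverage gave 0.51 (0.43 to 0.59). Cbx7, the chromodomain subunit of PRC1 in stem cells, had 96 sites in Tdg and 8 in wt cells (1.26, 1.00 to 1.54), and Mtf2, an accessory factor of PRC2, 10 and 1 (1.31). Suz12, a core PRC2 subunit, had 12 and 3 sites (−1.34) and Ring1, a ubiquitin ligase of PRC1, 6 and 3 (−1.88). Of 22 other histone and chromatin modifiers 20 were tested, 2 higher and 5 lower, with a median of −0.19, and their summed coverage gave −0.57 (−0.62 to −0.51). Hdac1, a histone deacetylase, had 29 and 2 sites (1.28), while Kmt2b and Ehmt1, both histone methyltransferases, had 18 and 7 (−1.84) and 27 and 12 (−1.69).

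ERK pathway genes were called about as often as all genes. Of 22 ERK pathway genes 18 were tested, 2 higher and 4 lower, against 11.6% and 23.5% of all genes tested, with a median of −0.11. Spry4, a feedback inhibitor of this pathway, had 39 sites with 627 in Tdg cells and 1 site with 8.5 in wt cells (2.41, 1.73 to 3.19), and Dusp4, a phosphatase of ERK, 20 and 1 (1.60). Hras had 5 and 2 sites (−2.43) and Map2k2, which encodes a MEK kinase, 12 and 4 (−1.79). Of 22 WNT pathway genes, the pathway that GSK3 restrains, 17 were tested, none higher and 2 lower, with a median of −0.08. Tcf7l1, the repressor that GSK3 inhibition relieves, had 276 sites in Tdg and 38 in wt cells, 26 of them shared (0.29, 0.18 to 0.41). Dvl1 had 10 and 6 sites (−1.97) and Axin1, the scaffold of the destruction complex, 8 and 2 (−1.05).

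Over their whole spans the germline genes had the lowest list median, −0.92, from 9 tested of 20. Of these 1 was higher and 3 were lower, against 11.6% and 23.5% of all genes tested. Summed over all members the log2 ratio was −0.34 (−0.48 to −0.21), which was not the lowest of the lists; the silent tissue-specific genes had −0.66. Dpep3 had 8 sites in either group, with 149.5 in Tdg and 64 in wt cells (−2.57, −2.87 to −2.26), and Slc25a31 4 and 2 (−2.54). Tdrd9, an RNA helicase of the piRNA pathway, had 54 sites in Tdg and 4 in wt cells (1.02, 0.66 to 1.40). Of 24 imprinted genes 14 were tested, 1 higher and 2 lower, with a median of −0.47. Sgce had 59 and 5 sites (1.13), while Mest had 9 and 5 (−1.18) and the maternal transcript Mirg 9 and 5 (−1.71). Snrpn had 8 sites in Tdg cells and none in wt cells.

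Of 18 housekeeping genes 8 had no site in either group and 4 were tested. Of these 1 was higher and 2 were lower, against 11.6% and 23.5% of all genes tested. Pkm, the pyruvate kinase gene, had 27 sites in Tdg and 1 in wt cells (2.54, 1.70 to 3.55), and Ldha, lactate dehydrogenase, 16 and 7 (−1.02). Of 18 tissue-specific genes that are silent in stem cells 9 were tested, 2 higher and 4 lower, with a median of −0.67. Myh7, the slow myosin heavy chain, had 8 and 3 sites (−2.35). Of the markers of other cell types, 13 of 22 extraembryonic genes were tested (2 higher, 1 lower, median −0.49), 5 of 10 fibroblast genes (none higher, 1 lower, median −0.30) and 11 of 13 neural genes (2 higher, 1 lower, median 0.03). Twist2, a fibroblast transcription factor, had 10 and 6 sites (−2.05), and the neuronal genes Syt1 and Grin2b had 55 and 4 (1.44) and 92 and 6 (1.17).

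In 100 kb windows the calls leaned the other way under the main settings, but not under several alternatives. Of 14893 windows tested, 2014 were higher in Tdg cells (13.5%) and 1531 lower (10.3%), with a median log2 ratio of −0.01, and 3643 more had sites in Tdg cells alone. With no minimum on summed coverage 2014 were higher and 2014 lower, and at a minimum of 100 there were 2014 and 1063. On the number of sites, 188 were higher and 305 lower, and from a coverage of 10 upward 900 and 2320. Among windows with at least 5 sites in each group 242 were higher and 695 lower. Window medians were −0.33 on chromosome 8, −0.24 on chromosome 11 and 0.22 on X. Among windows with at least 10 sites in Tdg cells and 5 in wt cells, the lowest lay in Arhgap10. It spans chr8:77400000-77499999 and had 12 sites in Tdg and 11 in wt cells (−2.94, −3.22 to −2.66).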

How the data were processed

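Base-resolution 5caC was measured in DNA of mouse embryonic stem cells. Per the labels' protocols, 5hmC and unmodified CGs were shielded by enzymes, then 5caC at CGs was decarboxylated and tagged by an engineered SssI methyltransferase, and the tagged DNA was enriched and sequenced on an Ion Proton. The authors deposited 1 coverage signal per listed CG and group, a multiple of 0.5, which was read as the mean of 2 technical replicates; separate cultures are not stated. Per the submitters' processing notes the genome build was mm10. The aligner, the site caller and the listing rule were not given in the sources used here. Control DNA, from triple Tet knockout cells per the labels, is not analysed here. A site that never reached the listing minimum is absent, so no value of 0 was assumed.

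Positions count from 0: read so, all 9569 listed positions inside promoter sequences (100%) fell on the C of a CG, and none when read from 1. They are printed counted from 1. Gene spans and promoter sequences came from RefSeq tables of GRCm38.p6, without flanks; a site in overlapping spans counted for each. Coverage was doubled to the sum over 2 replicates for the Clopper-Pearson 95% intervals, which take a summed coverage as reads. Genes and windows needed a summed coverage of at least 40 over both groups. No test was run and no p-value computed, since each group has 1 value. Python 3.11.15, numpy 2.4.6, pandas 2.3.3, scipy 1.17.1 and matplotlib 3.10.9 were used, and the ratio was checked on simulated data. The simulated reads were independent, as the interval assumes, so that check does not cover clustered sites, listing minimums or reads copied by PCR.

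Genes were named by rule: from each of the 17 lists the 2 highest and 2 lowest ratios and those with sites in 1 group alone; over all protein-coding genes, the 10 highest and 10 lowest with at least 5 sites in each group and a summed coverage of at least 100, the 10 with the most wt sites, and the 5 with the most Tdg sites and none in wt; predicted symbols were left out, and a few genes that the rule names are not reported here. Named sites were the 5 shared sites with the highest coverage in either group and the promoters with the most sites. Promoters on chromosome 18 were left out of that ranking of promoters. Members of the germline list, runs and windows named for their values were chosen after these were seen. The comparison and the gene lists were chosen with earlier results of these data known. Alternatives covered coverage minimums, scaling, measure, filters, capped sites, flanks and chromosomes.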

Additional observations from a re-analysis of the deposited data

Results flagged for a closer look

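For 4 gene lists the log2 ratio of summed coverage shares, Tdg over wt, had one sign in serum-2i and the opposite in serum, with both intervals away from 0. The general pluripotency genes had 0.52 (0.31 to 0.73) in serum-2i, where the median over their 3 tested members was −0.54, and −0.61 (−1.12 to −0.05) in serum. The histone and chromatin modifiers had −0.57 in serum-2i and 0.64 (0.26 to 1.05) in serum. The fibroblast markers had −0.40 in serum-2i and 1.90 (0.86 to 3.22) in serum. The neural genes had 0.12 (0.03 to 0.21) in serum-2i and −0.47 (−0.73 to −0.20) in serum. The serum wt cells had 3, 7, 1 and 10 sites in these lists, in that order, so each serum value rests on few sites. The difference between the media was not tested, since each group has 1 value.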

How the results depend on the processing

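No paired analysis was possible because the table holds no value per replicate, so the alternatives with the replicate as a block and without replicate 1 or 2 were not run. The ratio of sites rose from 6.22 to 8.39, 20.6 and 153 at minimums of 6, 10 and 20, and the share of wt sites listed in Tdg cells from 49.1% to 51.9% and 53.1% at 6 and 10. Higher genes numbered 1832, against 424 from a coverage of 10, 98 by number of sites, 3013 with 5 kb flanks and 108 with at least 5 sites in each group. Lower genes numbered 3725, against 544 by number of sites, 2212 at a summed coverage of at least 100 and 1025 with at least 5 sites. Higher windows numbered 2014, against 900, 188 and 242 from a coverage of 10, by number of sites and with at least 5 sites, and lower windows 1531, against 2320, 305 and 695. The settings on at least 5 sites and those without chromosomes 8, 11 and X were chosen after seeing the data. Within 5 kb of a gene end lay 22.1% of Tdg and 23.2% of wt sites, against 5.41% and 5.22% within 1 kb. The share with a neighbour within 1 kb was 55.4% for an equal number of Tdg sites and 29.96% for wt sites from 6. From a coverage of 10, Smug1 turned to −0.15 and Ckm to −0.23; with flanks Fgf8 turned to 0.59, Krt18 to 0.62 and Krt14 to −0.14; the DNA methylation list turned to 0.13 under median-ratio scaling. Of the named genes, 45 kept their outcome, called or not, in each alternative where they still had a ratio. Of the rest, 5 turned in some alternative, 37 others lost a call and 9 others gained one. A gene left without sites in a group had no ratio there and was not counted as losing its call. Spry4, Eomes and Pkm, each called on 1 wt site with a coverage below 10, were thus not judged at that minimum. Counting sites, needing 5 sites or raising the minimum leaves fewer units or genes by construction. Needing 5 sites or raising the minimum also keeps genes and windows by their wt sites, which itself favours lower calls. Other causes were not tested. The table gives no library depth, so fewer reads and less 5caC in wt cells cannot be told apart, and no spread between replicates or cultures enters any value.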

Other observations

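The bases next to a promoter CG went with its listing in Tdg cells. The context is given as the CG with 1 base on each side, read on either strand, so that for example ACGG also counts its complement CCGT. Of all promoter CGs, 3.14% (2.77 to 3.54%) of those in ACGT and 3.10% (2.88 to 3.35%) in ACGG were listed in Tdg cells, against 0.151% (0.116 to 0.193%) in GCGC. GCGC made up 41180 of the 296887 promoter CGs and 1328 of the 20309 in promoters with 5 to 9 CGs, so the latter were also taken alone. There CCGG had 14.6% (13.1 to 16.2%), CCGA 13.1%, ACGG 12.9% and GCGC 1.43% (0.864 to 2.23%). In wt cells CCGG had 2.39% (1.78 to 3.13%) and GCGC 0.602% (0.260 to 1.18%), from 51 and 8 listed CGs. The labelling chemistry and the enzyme's own preference can also depend on these bases, and their part was not tested.

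Some wt sites of high coverage had no entry in Tdg cells. The highest 3, chosen after their values were seen, lay in Chrdl2 at chr7:100010066-100010067 with 35, in Fam234b at chr6:135219520-135219521 with 34.5 and in Clcn2, a chloride channel gene, at chr16:20712351-20712352 with 32.5. The Clcn2 site was also listed in serum, with 8 in Tdg and 5 in wt cells.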
